A study of Mus musculus with 80 samples.

Results

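The genes described here encode the heavy chains of mouse major histocompatibility complex (MHC) class I molecules. They are the 7 genes whose symbols were H2-K1, H2-D1, H2-Q4, H2-Q6, H2-Q7, H2-T22 and H2-T23, out of 41388 genes in the first deposited table and 40481 in the second, and all 7 were present in both. They were chosen by symbol, not by a measured value. RNA-seq had been made from mouse hematopoietic stem cells (HSC), which renew themselves and give rise to all blood lineages, and from hematopoietic progenitor cells (HPC), which are more restricted. There were 80 libraries in 20 groups, all on the B6 strain background.

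The HSC age series held 3, 4, 3, 4, 4, 4 and 4 libraries at E14, E16, E18, P0, P7, P14 and 8 weeks (Adult), and the labels put the embryonic ages a fraction of a day later than these names. The HPC age series held 3, 4, 4, 5 and 4 libraries at E16, P0, P7, P14 and Adult, and no genotype or treatment label was given for either age series. On the day of birth (P0), the groups were 4 libraries of Ifnar ko (Ifnar -/-) HSC with 5 of wild type HSC, and 4 of Ifnar ko HPC with 4 of wild type HPC. Ifnar is the receptor for type I interferons, the cytokines first known for antiviral defence. At P14 the HPC groups were Ifnar -/- with Flt3 ITD/+ (5 libraries), Ifnar -/- with Flt3 +/+ (4), Ifnar +/- with Flt3 ITD/+ (4) and Ifnar +/- with Flt3 +/+ (4), so that even the control of this set lacked 1 Ifnar allele by its label. Flt3 ITD is an internal tandem duplication in the cytokine receptor Flt3 that is found in acute myeloid leukemia and keeps the receptor active. The labels did not say which Ifnar subunit gene was disrupted or in which cells, which organ the cells came from, which surface markers were sorted, or whether libraries of a group came from separate animals. P-values therefore measure the spread between these libraries, part of which may be technical.

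Class I heavy chains pair with the light chain beta-2 microglobulin, take up a peptide in the endoplasmic reticulum and carry it to the cell surface. H2-K1 and H2-D1 encode the classical molecules that show peptides of the cell's own proteins to cytotoxic T cells and that engage inhibitory receptors of natural killer cells. H2-Q4, H2-Q6 and H2-Q7 lie in the Qa region and encode non-classical molecules, of which H2-Q6 and H2-Q7 encode Qa-2. H2-T23 encodes Qa-1, the ligand of the CD94/NKG2 receptors, and H2-T22 encodes a molecule recognised by some gamma delta T cells. Transcription of class I genes is known to respond to interferons and to the transactivator Nlrc5.

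Matches to interferon response and kappa B sequences differ between the classical and Qa genes on one side and the T region genes on the other. The promoter stretches below are shown for these matches. They are from RefSeq on build GRCm38.p6, in which all 7 genes lie on chromosome 17, and each is written 5′ to 3′ on the strand of its gene. In the first 5, the first run of capitals is a kappa B match (GGGGNTTNCC) and the second is the 12-letter interferon element AGTTTCACTTCT. In the last pair, the capitals are a match to the IRF pair motif TTTCNNTTTC. H2-K1 at chr17:34000416-34000468 and both T region genes are on the minus strand, and the others are on the plus strand, with H2-D1 at chr17:35262913-35262965, H2-Q4 at chr17:35379433-35379485, H2-Q6 at chr17:35424667-35424719, H2-Q7 at chr17:35439012-35439063, H2-T22 at chr17:36042912-36042966 and H2-T23 at chr17:36032804-36032858.
H2-K1: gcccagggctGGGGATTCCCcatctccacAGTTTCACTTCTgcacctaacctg
H2-D1: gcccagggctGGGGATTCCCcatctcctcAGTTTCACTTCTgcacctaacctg
H2-Q4: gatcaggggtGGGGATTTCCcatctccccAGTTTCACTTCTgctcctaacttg
H2-Q6: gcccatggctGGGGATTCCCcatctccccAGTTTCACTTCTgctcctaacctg
H2-Q7: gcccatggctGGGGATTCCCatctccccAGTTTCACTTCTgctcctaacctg
H2-T22: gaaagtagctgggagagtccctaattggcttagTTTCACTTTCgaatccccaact
H2-T23: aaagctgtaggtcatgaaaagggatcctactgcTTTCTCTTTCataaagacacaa

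The motifs were searched on both strands of the 300 bases around each start site (250 before and 50 after), and were chosen with the sequences already in view. The interferon element is written with the exact letters of the H2-K1 promoter, which therefore had to match. Its share of all promoters is for this reason no test of whether the members are unusual. AGTTTCACTTCT occurred in 11 of 32851 mouse promoters (0.033%), which belonged to 10 genes and included H2-K1, H2-D1, H2-Q4, H2-Q6 and H2-Q7. It lay 92 bases before the start site in H2-K1, 152 in H2-D1, 155 in H2-Q4, 154 in H2-Q6 and 115 in H2-Q7. For H2-K1, which had 2 promoters in the set, the stretch and the distance are from the first of them only. TTTCNNTTTC occurred in 3.44% of promoters, and among the 7 genes in H2-T22, 191 bases before the start, and in H2-T23, 124 bases before it. The kappa B letters occurred in 1.24% of promoters, and in the 5 promoters that hold both, the kappa B and interferon matches did not overlap. A match is only a run of letters, and no binding was measured.

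Expression is given as RPKM, which scales reads to exon length and to library size, on a single scale for all libraries. Class I genes are so alike that reads can be split between them by an aligner, and their values are uncertain for this reason. Over the coding sequence, H2-Q6 and H2-Q7 were 95.4% identical, H2-K1 and H2-D1 92.0%, and H2-K1 and H2-T22 75.4%, which was the lowest of the 21 pairs. The share of a transcript's 50-base windows that also occurred in another gene was 8.79% for H2-K1, 14.3% for H2-D1, 29.8% for H2-T23, 36.8% for H2-Q6, 39.2% for H2-Q4, 40.2% for H2-Q7 and 46.4% for H2-T22. H2-T22 shared most with H2-T10 (39.3% of its windows), H2-Q6 with H2-Q7 (30.5%) and H2-Q7 with H2-Q5 (20.1%), which is not among the members.

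Library depth ranged between 6950206 and 24033730 reads in the HSC age series, 7910900 and 25382447 in the HPC age series, 37039400 and 46302596 for P0 HSC, 11683086 and 14719608 for P0 HPC, and 58400350 and 92099541 for P14 HPC. The labelled cell types were checked against their markers: the stem cell receptor gene Procr was at 47.5 to 70.1 RPKM in Adult HSC and 27.6 to 40.5 in Adult HPC, and Cd48, which marks progenitors, was at 7.40 to 8.44 RPKM in Adult HSC and 256 to 308 in Adult HPC. Ifnar1 reads did not mark the knockout, at 9.88 to 11.9 RPKM in Ifnar ko HSC and 8.69 to 12.7 in wild type HSC, so that gene-level values check nothing about which allele was lost. Libraries 1, 3 and 4 labelled Ifnar +/- Flt3 +/+ stood apart from the second library of the group. They had 13.4, 13.9 and 20.7 RPKM of Flt3, against 140.5 in that library and 78.4 to 133 in Ifnar -/- Flt3 +/+ HPC, and Kit in this group spanned 13.6 to 219 RPKM. Heavy chain results that rest on the group are given below with and without its second library. That library was the only one whose Flt3 was near that of the Ifnar -/- Flt3 +/+ HPC. Results of other gene lists are given with all libraries of the group. Flt3 also varied within other P14 HPC groups. It was at 17.0 and 16.1 RPKM in Ifnar -/- Flt3 ITD/+ libraries 1 and 5, against 40.5 to 57.7 in libraries 2 to 4. In P14 HPC of the age series it spanned 22.4 to 189.6 RPKM. Kit spanned 50.3 to 154.6 RPKM in the former group and 64.9 to 217.9 in the latter. The part of these differences in the heavy chain results was not tested.

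In HSC, all 7 heavy chain genes were higher in Adult than in E16 libraries, and no Adult library overlapped an E16 library for any of them, as was so for 13.5% of all genes tested. H2-K1, the classical gene, had 965, 919, 771 and 949 RPKM in Adult HSC, against 165, 160.4, 185 and 192 RPKM in E16 HSC. H2-D1, its classical partner, had 1047, 1405, 1215 and 1461 RPKM in Adult HSC and 287, 289, 343 and 363 in E16 HSC. Both genes were already among the abundant class I RNAs before birth, and each Adult library lay well above each E16 library. The fitted log2 fold changes were 2.36 ± 0.13 for H2-K1 (SE, limma adjusted p = 8.75e-14) and 2.00 ± 0.12 for H2-D1 (limma adjusted p = 4.23e-13), which is a 5.13-fold and a 3.99-fold difference.

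The Qa-2 genes changed most. H2-Q6 had 126, 133, 123 and 155 RPKM in Adult HSC, against 1.51, 0.570, 1.004 and 0.273 RPKM in E16 HSC, where it rested on 7 to 54 reads a library. H2-Q7 had 31.8, 34.2, 30.6 and 38.2 RPKM in Adult HSC and 0.518, 0.484, 0.388 and 0.305 in E16 HSC. Both genes were low in each E16 library and high in each Adult library, and their fitted changes were 6.74 ± 0.28 for H2-Q6 (limma adjusted p = 2.49e-16) and 5.22 ± 0.28 for H2-Q7 (limma adjusted p = 5.93e-14). These changes were fitted on log2(RPKM + 0.5), a scale that understates the change of low genes. H2-Q4, the third Qa gene, averaged 5.32 ± 1.01 RPKM in Adult HSC and 0.434 ± 0.222 in E16 HSC (SD, n = 4 each), with a change of 2.66 ± 0.29 (limma adjusted p = 9.93e-08).

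The T region genes changed by about as much as the classical pair. H2-T23 had 236, 279.9, 235 and 285 RPKM in Adult HSC and 62.01, 60.002, 66.4 and 66.4 in E16 HSC, a change of 2.01 ± 0.11 (limma adjusted p = 5.05e-14). H2-T22 averaged 52.7 ± 1.49 RPKM in Adult HSC and 11.3 ± 2.06 in E16 HSC (SD, n = 4 each), a change of 2.20 ± 0.16 (limma adjusted p = 3.73e-11). Of all 13356 genes tested, 12.3% were called higher in Adult than in E16 HSC at an adjusted p under 0.05, and the median change over all genes was 0.02 on the log2 scale, against 2.36 over the 7 heavy chain genes.

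**Figure D1:**
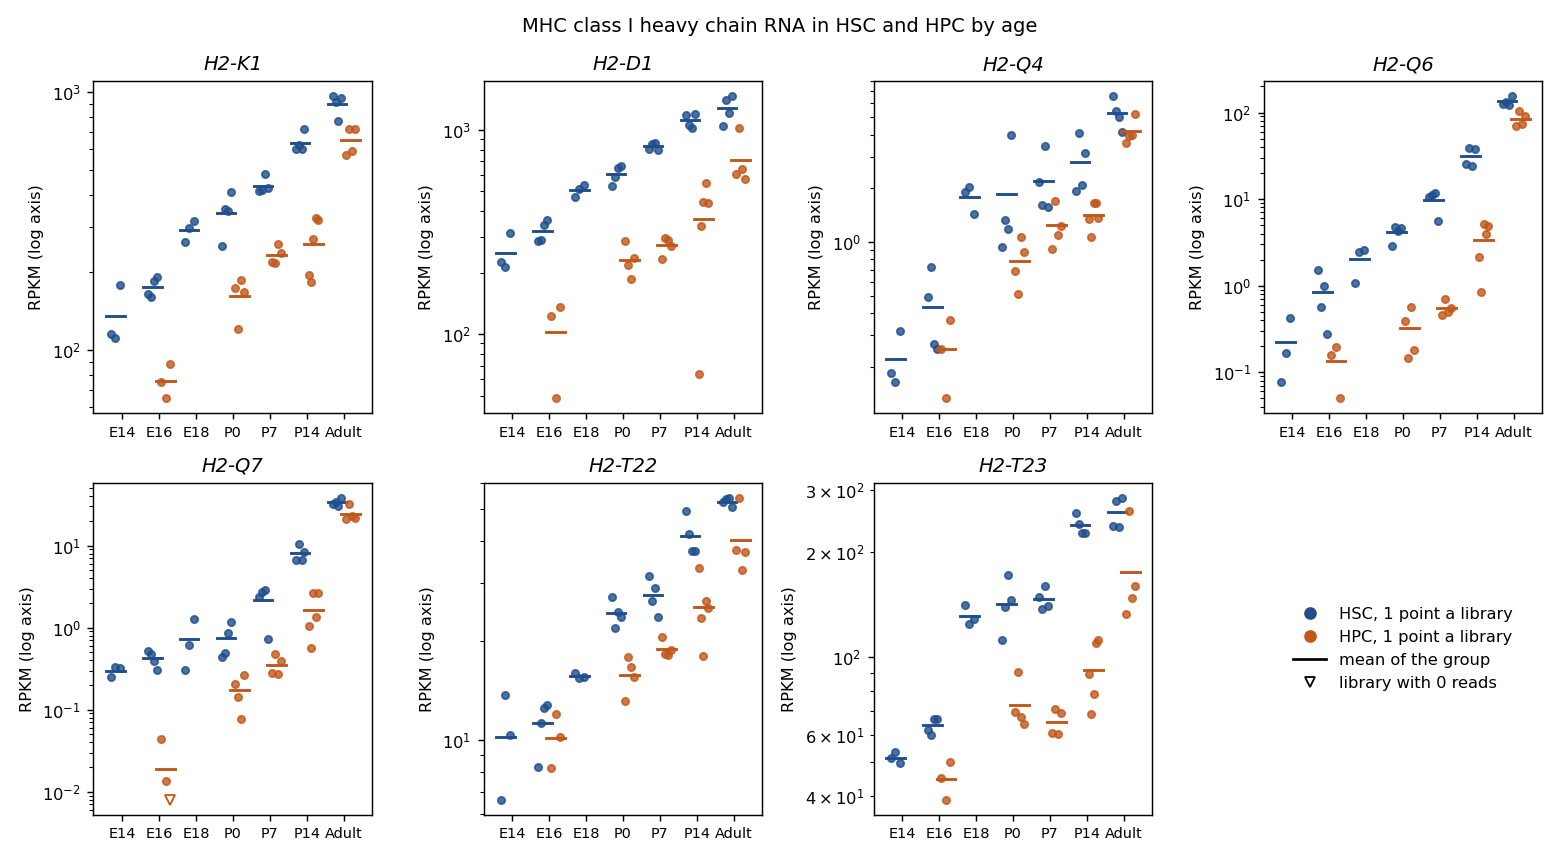
RPKM (log axis) of the 7 MHC class I heavy chain genes by age, with HSC in blue and HPC in orange, 1 point a library and a line at the mean of each group. Levels were lowest at E14 or E16 and highest at Adult in both cell types for every gene by group mean, and the axis of H2-Q6 and H2-Q7 spans the widest range.

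The steps between neighbouring ages differed from gene to gene. From E14 to E16, no heavy chain gene was called in HSC, in a comparison that called 7 of 13356 genes in all (0.0524%, with 806 genes at an unadjusted p under 0.05). At E18, H2-K1 (262 to 315 RPKM at E18, 160.4 to 192 at E16), H2-D1, H2-Q4 and H2-T23 were higher than at E16, with changes of 0.69, 0.63, 1.29 and 0.99, while 2.42% of genes were called higher. H2-T23 had the smallest adjusted p of the 4 (limma adjusted p = 2.29e-06), with 141, 124 and 129 RPKM at E18. The Qa-2 genes had not passed the threshold by then, at 0.92 ± 0.30 for H2-Q6 (limma adjusted p = 0.0677) and 0.33 ± 0.30 for H2-Q7 (limma adjusted p = 0.597). The H2-Q4 call of this step was lost without either of E16 libraries 3 and 4 or of E18 libraries 1 and 2. The progenitor genes Cd48 and Mpo were at 1.19 to 4.12 and 1.97 to 4.27 RPKM in E18 HSC, against 28.6 to 46.98 and 19.9 to 82.2 in E16 HSC, and their part in this step was not tested.

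Around birth few of the genes differed beyond the spread. Between E18 and P0, H2-T22 alone of the 7 was called, with 27.1, 21.9, 24.5 and 23.6 RPKM at P0 and 15.97, 15.5 and 15.5 at E18 (0.63 ± 0.17, limma adjusted p = 0.0345), beside 2.96% of all genes. This call was lost without any 1 of the E18 libraries or of P0 libraries 1, 3 and 4. Cd48 and Mpo were at 26.1 to 37.1 and 8.16 to 76.5 RPKM in P0 HSC, against 1.19 to 4.12 and 1.97 to 4.27 in E18 HSC. The part of these progenitor genes in the step was not tested. At P7, H2-D1, H2-Q6 and H2-Q7 were higher than at P0, by 0.48, 1.15 and 1.06, where 3.27% of genes were called higher. H2-Q6 had 10.7, 11.2, 11.7 and 5.53 RPKM at P7 and 2.86, 4.78, 4.24 and 4.60 at P0, and the fourth P7 library was the low one for both Qa-2 genes. The H2-Q7 call was lost without any 1 of P7 libraries 1 to 3 or of P0 libraries 1 and 2.

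Between P7 and P14, 4 of the 7 genes were called higher, in a step where 0.629% of genes were. H2-Q6 and H2-Q7 gained 1.66 ± 0.28 and 1.76 ± 0.28, H2-T23 gained 0.69 ± 0.11 with 226 to 258 RPKM at P14 and 137 to 159 at P7, and H2-K1 gained 0.54 ± 0.13 (limma adjusted p = 0.00152, 0.00117, 0.00098 and 0.023). The H2-K1 call was the least firm and was lost without any 1 of P7 libraries 1, 2 and 4 or of P14 libraries 2 and 4. Between P14 and Adult, H2-K1, H2-Q6 and H2-Q7 were called higher by 0.51, 2.10 and 2.02, beside 2.25% of genes. H2-K1 lost this call without either of P14 libraries 1 and 3 or without Adult library 4. H2-D1 and H2-T23 had by P14 reached levels whose libraries overlapped those of Adult HSC, with 1047 to 1461 RPKM of H2-D1 in Adult and 1019 to 1201 in P14 HSC.

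Adult and P0 HSC libraries shared a title code prefix, whereas Adult and E16 libraries did not, and what the prefixes stand for was not given. The steps from E16 to E18 and from P7 to P14 also lay within 1 prefix each, whereas age and prefix cannot be told apart in the steps from E18 to P0, from P0 to P7 and from P14 to Adult. Between Adult and P0, all 7 genes were again higher without overlap (as were 9.02% of all genes tested), by 1.45 for H2-K1, 1.10 for H2-D1, 1.47 for H2-Q4, 4.91 for H2-Q6, 4.84 for H2-Q7, 1.14 for H2-T22 and 0.90 for H2-T23, where 10.6% of all genes were called higher. All 7 calls of Adult against E16 and of Adult against P0 held when each library was left out in turn. Markers of other cells and of sex also differed between Adult and E16 HSC. Of 9 macrophage markers, 6 were called higher and 1 lower, with summed levels of 55.4 to 104 RPKM in Adult and 43.95 to 67.9 in E16 HSC and none at 0 throughout either group. The 5 T and NK cell markers summed to 69.99 to 91.6 RPKM in Adult and 10.9 to 23.8 in E16 HSC, nearly all from Nkg7, with Cd3e and Ncr1 at 0 in every library of both. The 4 Y-linked genes summed to 0.0692 to 0.155 RPKM in Adult and 10.8 to 42.4 in E16 HSC, and all 4 were called lower. The progenitor genes Cd48 and Mpo were at 7.40 to 8.44 and 0.557 to 3.09 RPKM in Adult HSC, against 28.6 to 46.98 and 19.9 to 82.2 in E16 HSC. In P0 HSC they were at 26.1 to 37.1 and 8.16 to 76.5 RPKM. In bulk samples a different share of some cell type cannot be told apart from a different RNA level per cell, and the part of these markers in the heavy chain differences was not tested. With the Y-linked level as a covariate, all 7 genes were still called in both comparisons.

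In HPC, all 7 heavy chain genes were likewise higher in Adult than in E16 libraries, and for each gene the lowest Adult library lay above the highest E16 library. That was so for 24.1% of all genes tested. H2-K1 had 572, 721, 593 and 717 RPKM in Adult HPC, against 75.5, 65.2 and 87.97 RPKM in E16 HPC. H2-D1 had 608, 1018, 644 and 577 RPKM in Adult HPC and 123, 48.7 and 136 in E16 HPC, where the second library was low. Their changes were 2.96 ± 0.18 for H2-K1 (edgeR adjusted p = 6.97e-11) and 2.69 ± 0.47 for H2-D1 (edgeR adjusted p = 0.000307), and 14.9% of 14754 genes were called higher.

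H2-Q6 and H2-Q7 were close to undetected in E16 HPC. H2-Q6 had 69.3, 104, 74.3 and 90.4 RPKM in Adult HPC and 0.157, 0.193 and 0.0503 in E16 HPC, a change of 8.98 ± 0.56 (edgeR adjusted p = 1.06e-10). H2-Q7 had 21.03, 32.2, 22.7 and 21.5 RPKM in Adult HPC, against 0.0439, 0.0135 and 0 in E16 HPC, where the 3 libraries held 4, 1 and 0 of its reads. Its fitted change of 9.75 ± 0.62 (edgeR adjusted p = 1.26e-10) thus rests on 5 reads in one of the groups, and its size is poorly fixed. H2-Q4 averaged 4.19 ± 0.725 RPKM in Adult (n = 4) and 0.250 ± 0.115 in E16 HPC (SD, n = 3), a change of 3.98 ± 0.35 (edgeR adjusted p = 2.53e-08). H2-T22 and H2-T23 changed least, by 1.84 ± 0.22 and 1.84 ± 0.21 (edgeR adjusted p = 2.23e-06 and 9.19e-07), with 132, 261, 148 and 160.00 RPKM of H2-T23 in Adult and 45.1, 39.1 and 49.99 in E16 HPC. The median change was 2.96 over the 7 genes and 0.05 over all genes tested, and the 7 calls held when each library was left out in turn.

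Each HPC age carried its own title code letter, so that age and letter cannot be told apart in this cell type. H2-K1 and H2-Q4 were called higher at P0 than at E16, by 1.10 ± 0.17 and 1.68 ± 0.35 (edgeR adjusted p = 0.000768 and 0.0072), beside 2.60% of genes, and H2-Q4 lost the call without the second E16 library. Between P0 and P7 none of the 7 was called by edgeR, where 1.48% of genes were called in either direction and 1781 had an unadjusted p under 0.05, and DESeq2 called H2-K1 only. Between P7 and P14, H2-Q6, H2-Q7 and H2-T23 were called higher by 2.68 ± 0.38, 2.28 ± 0.36 and 0.60 ± 0.17 (edgeR adjusted p = 0.000226, 0.000514 and 0.0313), beside 4.83% of genes. The H2-T23 groups overlapped, and its call was lost without any 1 of the P7 libraries or of P14 libraries 4 and 5. P14 HPC varied widely in H2-D1, with 63.7, 339, 445, 549 and 438 RPKM, and H2-D1 was not called between P7 and P14 (0.52 ± 0.37, edgeR adjusted p = 0.409). Without the first P14 library, H2-D1 was called higher at P14 than at P7.

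The last HPC step, between P14 and Adult, called 5 of the 7 genes higher, while 14.9% of all genes were called higher. H2-Q6 had 69.3, 104, 74.3 and 90.4 RPKM in Adult and 2.12, 0.850, 5.13, 3.96 and 4.86 in P14 HPC, and gained 4.45 ± 0.33 (edgeR adjusted p = 5.24e-09). H2-Q7 gained 3.69 ± 0.32, H2-Q4 1.33 ± 0.24, H2-K1 1.12 ± 0.14 and H2-T23 0.72 ± 0.17 (edgeR adjusted p = 6.89e-08, 0.000446, 1.03e-05 and 0.0041). The order of the levels was Adult above P14 without overlap for H2-K1, H2-D1, H2-Q4, H2-Q6, H2-Q7 and H2-T23, whereas H2-T22 libraries of Adult, P14 and P7 HPC overlapped from age to age. Of all genes tested, 17.3% lay higher in Adult than in P14 HPC without overlap. At the low end, P0 lay above E16 without overlap for all 7 genes other than H2-Q6, and for 8.97% of all genes tested. The progenitor gene Mpo was at 204 to 306 RPKM in Adult and 494 to 4414 in P14 HPC, and the progenitor list summed to 1232 to 1502 RPKM in Adult and 1667 to 5499.9 in P14 HPC. Beside these changes, 7 of 9 macrophage markers were higher and 1 lower in Adult than in E16 HPC, with sums of 42.9 to 99.2 and 17.2 to 38.9 RPKM and C1qa at 0 in every E16 library. The T and NK cell list summed to 489.8 to 608 RPKM in Adult and 89.3 to 102 in E16 HPC, with Nkg7 the only member tested and higher, and Cd3e and Ncr1 at 0 in every library of both. All 3 B cell markers tested were lower, with sums of 81.2 to 110.2 RPKM in Adult and 108 to 183 in E16 HPC. Their part in the heavy chain differences was not tested.

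Several heavy chain genes had more RNA in HSC than in HPC at both ages tested. At E16, H2-K1, H2-D1, H2-Q6, H2-Q7 and H2-T23 were higher in HSC, where 12.7% of 14278 genes were called higher. H2-K1 had 165, 160.4, 185 and 192 RPKM in E16 HSC and 75.5, 65.2 and 87.97 in E16 HPC, a difference of 1.12 ± 0.16 (limma adjusted p = 4.56e-07), and H2-D1 differed by 1.69 ± 0.37 (limma adjusted p = 0.00082). These held when any 1 library was left out. The Qa-2 and H2-T23 differences did not. H2-T23 (0.43, limma adjusted p = 0.0468) lost the call without any 1 of the 7 libraries compared, H2-Q7 (0.81) without any other than HSC library 4, and H2-Q6 (0.96) without any 1 of HSC libraries 1 and 3 and HPC libraries 1 and 3.

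At 8 weeks, H2-K1, H2-D1 and H2-T23 were called higher in HSC, beside 13.1% of genes. H2-T23 had 236, 279.9, 235 and 285 RPKM in Adult HSC and 132, 261, 148 and 160.00 in Adult HPC (0.64 ± 0.15, limma adjusted p = 0.000989), and the second HPC library lay within the HSC range. H2-K1 differed by 0.50 ± 0.14 (limma adjusted p = 0.00732) and H2-D1 by 0.90 ± 0.34 (limma adjusted p = 0.0438). The H2-D1 call was lost without any 1 of HSC libraries 2, 3 and 4 or of HPC libraries 1, 3 and 4, and with the Y-linked level as a covariate H2-T23 alone was called. For none of the 7 genes did limma call a difference between HSC and HPC in the Adult minus E16 change, with estimates from -0.78 ± 0.50 for H2-D1 to 0.37 ± 0.26 for H2-T22, where 4.15% of all genes were called and 2458 had an unadjusted p under 0.05. A missed threshold does not show that the 2 cell types changed alike, and H2-K1 was the nearest to it (-0.63 ± 0.21, limma adjusted p = 0.0893). The 0.5 added to RPKM exceeds the E16 HPC means of H2-Q6 (0.134 RPKM) and H2-Q7 (0.0191 RPKM), so that it shrinks their changes. With edgeR on the reads recovered from RPKM, H2-Q7 was called, with the smaller change in HSC. HSC and HPC libraries carried different title codes throughout, so that cell type and code cannot be told apart. The stem cell markers summed to 703 to 776 RPKM in E16 HSC and 425 to 516 in E16 HPC, and the Y-linked genes to 0.0692 to 0.155 in Adult HSC and 0.186 to 53.7 in Adult HPC. Their part in the result was not tested.

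The 7 genes together made up 0.702 ± 0.0671% of the reads of Adult HSC and 0.151 ± 0.0151% of those of E16 HSC (SD, n = 4 each). In HPC the share was 0.447 ± 0.0909% in Adult (n = 4) and 0.0628 ± 0.0160% in E16 libraries (n = 3). The summed RPKM was 2668 ± 257 in Adult and 573 ± 57.7 in E16 HSC. The classical pair held most of it at every age, with 81.8 ± 0.239% of the summed RPKM in Adult and 86.6 ± 0.638% in E16 HSC. The Qa-2 pair took 6.29 ± 0.273% in Adult and 0.227 ± 0.122% in E16 HSC, and 6.45 ± 0.351% in Adult and 0.0742 ± 0.0540% in E16 HPC. Over the 80 libraries, H2-D1 had a median rank of 1 among the 7 genes by RPKM, H2-K1 of 2, H2-T23 of 3, H2-T22 of 4, H2-Q6 of 5, H2-Q4 of 6 and H2-Q7 of 7.

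The ratio of H2-D1 to H2-K1 had a median of 1.73 over the 80 libraries and was under 1 in 8 of them, all of them HPC. These were the second E16, the third P0, the first P14 and the fourth Adult library of the age series, the first Ifnar -/- Flt3 ITD/+ library, and libraries 1, 3 and 4 labelled Ifnar +/- Flt3 +/+. The lowest ratio was 0.220, in the third Ifnar +/- Flt3 +/+ library. Each of the groups that hold these libraries also holds libraries with ratios over 1. In the P14 age group the ratio was 1.76 ± 0.135 in HSC (SD, n = 4) and 1.38 ± 0.612 in HPC (n = 5).

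**Figure D2:**
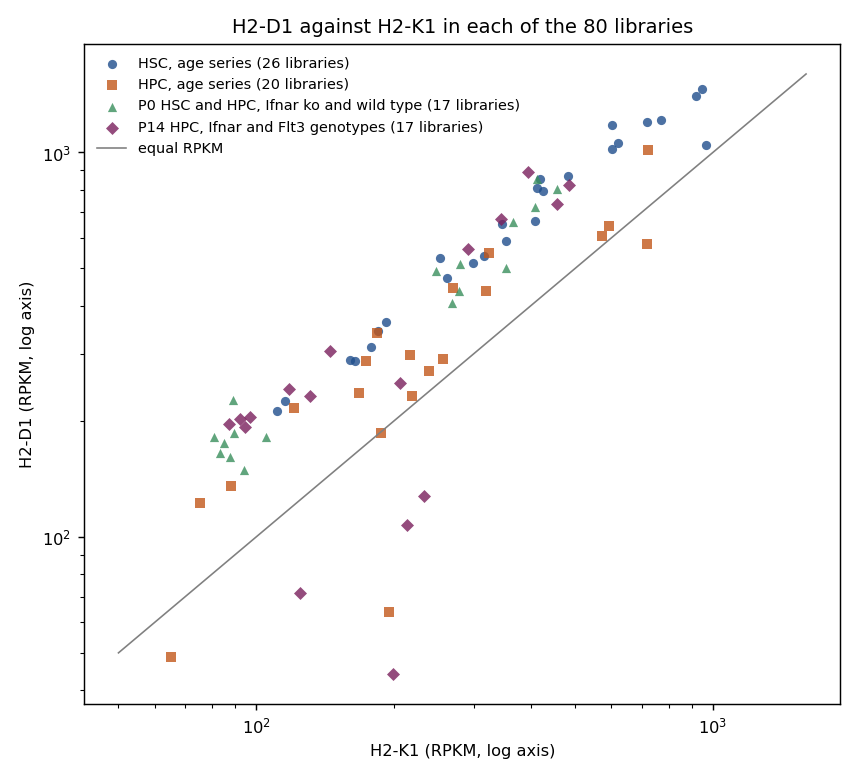
H2-D1 against H2-K1 in RPKM (both log axes), 1 point for each of the 80 libraries, with a line at equal RPKM. Most points lie above the line, and the 8 below it are HPC libraries.

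At P0, loss of Ifnar went with lower RNA of all 7 heavy chain genes in HSC. H2-K1 had 85.01, 80.9, 87.5 and 83.3 RPKM in Ifnar ko HSC, against 457, 412, 408, 248 and 365 RPKM in wild type HSC. H2-D1 had 175, 182, 162 and 165 RPKM in Ifnar ko HSC and 802, 853, 719.9, 491 and 660.02 in wild type HSC. The Ifnar ko libraries lay within a narrow range and the wild type libraries, with the fourth the lowest, far above them. H2-K1 fell by 2.15 ± 0.14 on the log2 scale and H2-D1 by 2.02 ± 0.14 (SE, edgeR adjusted p = 1.29e-06 and 1.77e-06), to levels 4.45-fold and 4.07-fold lower. Only 0.937% of 16224 genes were called lower in Ifnar ko HSC, and the median change was -2.15 over the 7 genes and -0.0017 over all genes.

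The Qa genes fell furthest. H2-Q6 had 0.134, 0.238, 0.207 and 0.0629 RPKM in Ifnar ko HSC (6 to 23 reads a library) and 12.1, 15.6, 12.6, 2.36 and 6.01 in wild type HSC. H2-Q7 had 0.0297, 0.0405, 0.0112 and 0.0461 RPKM in Ifnar ko HSC (2 to 9 reads) and 2.63, 1.82, 2.24, 0.982 and 2.08 in wild type HSC. Both were nearly lost in the knockout, with changes of -5.87 ± 0.56 and -5.87 ± 0.40 (edgeR adjusted p = 3e-05 and 1.29e-06), and the wild type levels themselves spread widely. H2-Q4 had 0.556, 0.324, 0.462 and 0.505 RPKM in Ifnar ko and 4.54, 3.30, 3.62, 1.89 and 2.38 in wild type HSC, a change of -2.75 ± 0.27 (edgeR adjusted p = 4.07e-05).

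The T region genes fell least. H2-T22 had 17.4, 20.6, 20.6 and 15.9 RPKM in Ifnar ko HSC and 52.4, 53.4, 43.7, 33.7 and 49.97 in wild type HSC (-1.31 ± 0.15, edgeR adjusted p = 0.000149). H2-T23 had 112, 118, 99.2 and 113 RPKM in Ifnar ko HSC and 205, 178, 169.7, 191 and 212 in wild type HSC (-0.79 ± 0.13, edgeR adjusted p = 0.00415). For each of the 7 genes no Ifnar ko library reached a wild type library, which was so for 1.94% of all genes tested, and the 7 calls held when each library was left out in turn. The ratio of H2-T23 to H2-K1 was 1.32 ± 0.137 in Ifnar ko HSC (SD, n = 4) and 0.530 ± 0.151 in wild type HSC (n = 5), and H2-T23 exceeded H2-K1 in each of the 4 knockout libraries and in none of the wild type ones. In terms of the sequences above, the 5 genes whose promoter held AGTTTCACTTCT had the 5 largest decreases in P0 HSC. H2-T22 and H2-T23, which held the TTTCNNTTTC match, had the smallest ones. The same split was seen on Ifnar loss among the members tested in P0 HPC, and in P14 Flt3 ITD/+ HPC. It was not seen in P14 Flt3 +/+ HPC, where H2-D1 was not called and H2-T22 was called lower in Ifnar -/- libraries. This is a description of 7 related genes, with no test, and the split between them rests on exact matches only. Read from the lower-case letters just before its capitals, the H2-T22 stretch departs from the interferon element of the 5 genes only at the element's end. Whether H2-T22 holds a different element was therefore not settled by these matches.

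**Figure D3:**
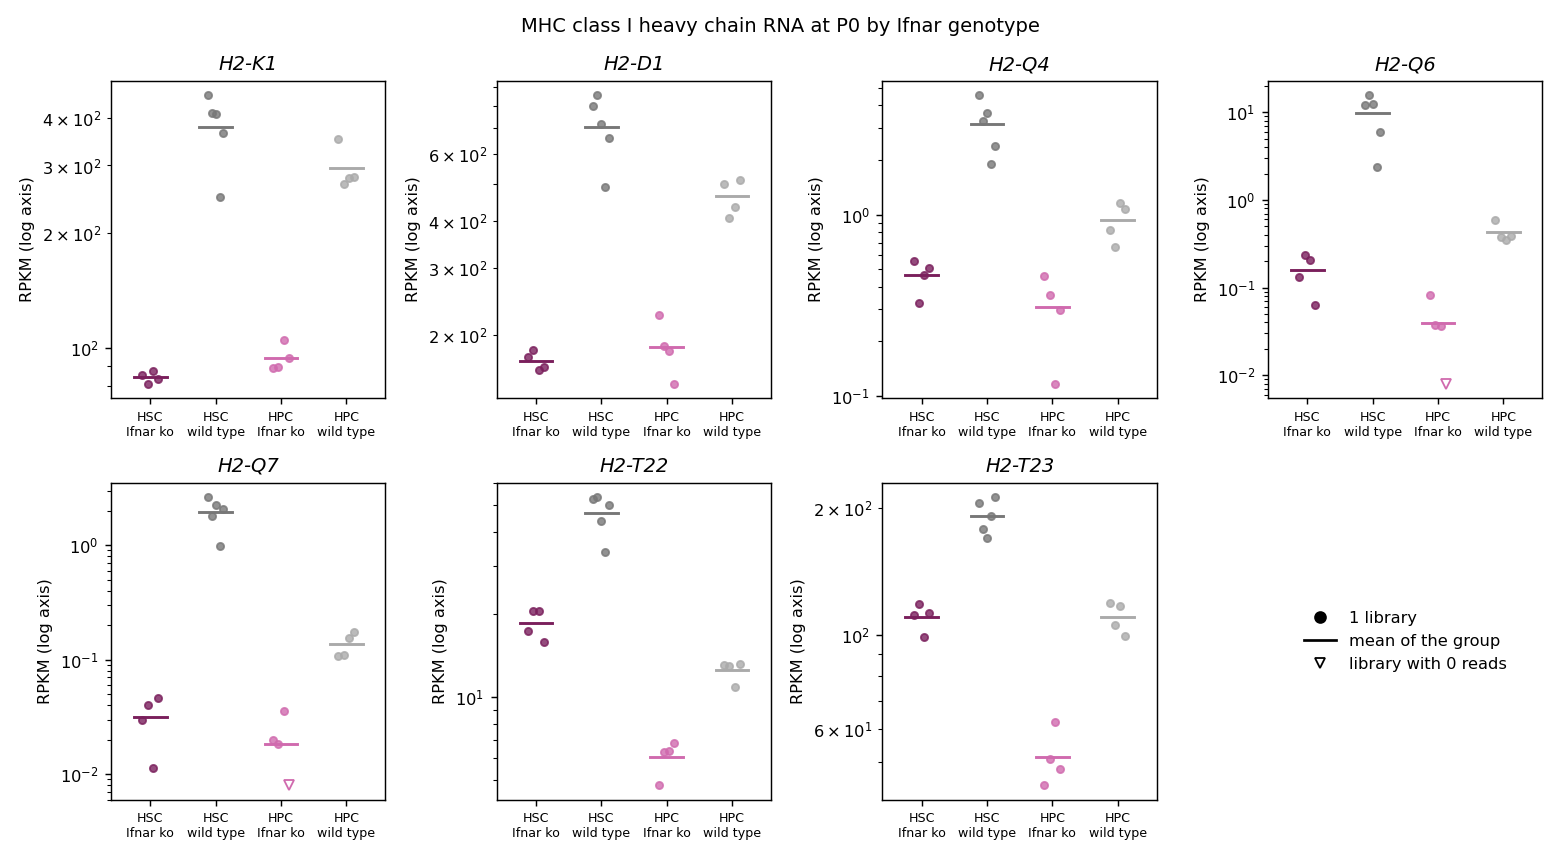
RPKM (log axis) of each heavy chain gene at P0 in Ifnar ko and wild type HSC and HPC, 1 point a library, with a line at the group mean and a triangle for a library with 0 reads. In both cell types every Ifnar ko library lies below every wild type library for all 7 genes.

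In P0 HPC, H2-K1 had 88.9, 89.5, 105 and 94.2 RPKM in Ifnar ko and 352, 269, 279 and 279.9 in wild type libraries, and fell by 1.71 ± 0.11 (edgeR adjusted p = 2.74e-07). H2-D1 had 227, 187, 182 and 149 RPKM in Ifnar ko and 499.7, 406, 436 and 513 in wild type HPC, and fell by 1.38 ± 0.13 (edgeR adjusted p = 1.1e-05). For both genes, each Ifnar ko library lay below each wild type library, as was so for 6.75% of all genes tested. H2-T22 fell by 1.11 ± 0.15 and H2-T23 by 1.17 ± 0.12 (edgeR adjusted p = 0.000372 and 2.95e-05), with 44.1, 51.01, 62.3 and 48.2 RPKM of H2-T23 in Ifnar ko and 119, 106, 117 and 99.4 in wild type HPC. H2-Q4 fell by 1.65 ± 0.45 (edgeR adjusted p = 0.0313), on 4 to 14 reads in Ifnar ko and 22 to 41 in wild type libraries, and lost the call without any 1 of Ifnar ko libraries 2, 3 and 4 or of wild type libraries 1, 2 and 3. H2-Q6 and H2-Q7 did not pass the filter on low counts. In the fit without that filter, and in 5 of the 8 fits that left out 1 library, H2-Q6 was called lower. H2-Q7 was called in none of these. H2-Q6 had 2, 1, 1 and 0 reads in Ifnar ko HPC and 16, 10, 10 and 12 in wild type HPC, and H2-Q7 had 1, 1, 2 and 0 in Ifnar ko HPC and 6, 6, 9 and 11 in wild type HPC. All 5 genes that were tested were thus called lower, where 5.58% of 12988 genes were.

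For none of the 7 genes did edgeR call a difference between HSC and HPC in the change on Ifnar loss, with -0.63 ± 0.20 for H2-D1 (edgeR adjusted p = 0.117) and -2.95 ± 0.97 for H2-Q7 (edgeR adjusted p = 0.135) the nearest to the threshold. In that comparison 1.75% of genes were called in either direction and 2540 had an unadjusted p under 0.05. H2-D1 was called, with the larger decrease in HSC, without the fourth wild type HSC library. HSC and HPC carried different title codes, whereas the genotypes of each cell type shared the leading part of 1 code. The letter after it followed the genotype in P0 HSC, with X in wild type and Y in Ifnar ko libraries. Each P14 genotype likewise had its own letter after a shared code. What the letters stand for was not given, so that genotype and letter cannot be told apart in these sets. Markers of other cells moved with the genotype as well. In P0 HSC, 3 of 9 macrophage markers (Vcam1, Cd5l and C1qb) were lower in Ifnar ko libraries, with sums of 84.2 to 107 RPKM in Ifnar ko and 48.2 to 101 in wild type HSC and none at 0 throughout. In P0 HPC, 5 of 8 macrophage markers tested were lower (17.4 to 45.4 RPKM in Ifnar ko, 52.4 to 66.8 in wild type), as were 3 of 3 B cell markers tested (91.1 to 115 and 115 to 157 RPKM, with Ms4a1 at 0 in both) and 2 of 3 dendritic cell markers tested (0.356 to 1.90 and 3.45 to 5.99 RPKM). In the same HPC, 5 of 8 stem cell markers were higher (431 to 625 RPKM in Ifnar ko, 382 to 463 in wild type), beside 675 of 12988 genes. The NK cell gene Nkg7 was lower (36.98 to 63.9 and 73.7 to 118 RPKM for the T and NK cell list, with Cd3e and Ncr1 at 0 in both). The progenitor genes Mpo and Cd48 were lower by 2.13 ± 0.13 and 0.97 ± 0.17 on the log2 scale. The part of all these markers in the heavy chain differences of HPC was not tested. In P0 HSC the progenitor list had no called gene (307 to 431 RPKM in Ifnar ko, 329 to 397 in wild type), nor had the stem cell list.

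At P14, Ifnar +/- Flt3 ITD/+ HPC had the highest mean RNA of each heavy chain gene among the 4 genotypes, and the knockout of Ifnar in the presence of Flt3 ITD went with lower RNA of all 7 genes. H2-K1 had 125, 131, 118, 87.2 and 94.8 RPKM in Ifnar -/- Flt3 ITD/+ HPC, against 484, 456, 393 and 343 RPKM in Ifnar +/- Flt3 ITD/+ HPC. H2-D1 had 71.5, 232, 243, 197 and 194 RPKM in Ifnar -/- Flt3 ITD/+ HPC and 824, 734, 889 and 673 in Ifnar +/- Flt3 ITD/+ HPC, with the first knockout library low. The groups did not overlap for either gene, where 5.07% of all genes lay lower without overlap, and the changes were -1.95 ± 0.18 for H2-K1 and -2.09 ± 0.50 for H2-D1 (edgeR adjusted p = 2.17e-06 and 0.0256). The H2-D1 call was lost without any 1 of knockout libraries 4 and 5 or of Ifnar +/- libraries 1 and 3. It was also lost under DESeq2 and without the filter on low counts. H2-Q6 had 0.141, 0.226, 0.352, 0.143 and 0.169 RPKM in Ifnar -/- Flt3 ITD/+ and 22.8, 10.5, 11.1 and 10.3 in Ifnar +/- Flt3 ITD/+ HPC. H2-Q7 had 0.0825, 0.0631, 0.0540, 0.133 and 0.124 RPKM in Ifnar -/- Flt3 ITD/+ and 6.77, 4.22, 4.22 and 3.67 in Ifnar +/- Flt3 ITD/+ HPC. As in P0 HSC, the Qa-2 pair fell furthest, with changes of -6.07 ± 0.55 and -5.71 ± 0.38 (edgeR adjusted p = 2.9e-06 and 7.08e-08), where 1.93% of 17464 genes were called lower. H2-Q4 changed by -2.05 ± 0.27, H2-T22 by -1.40 ± 0.18 and H2-T23 by -0.96 ± 0.19 (edgeR adjusted p = 0.000157, 0.000122 and 0.00516). Against these, the median change of all genes was 0.02 and that of the 7 genes -2.05. Stem cell markers were higher in 3 of 8 cases, beside 373 of 17464 genes. Their sums were 323 to 466 RPKM in Ifnar -/- Flt3 ITD/+ and 267 to 303 in Ifnar +/- Flt3 ITD/+ HPC. Among macrophage markers, 1 of 9, Csf1r, was lower (41.5 to 130.5 and 54.9 to 60.2 RPKM for the list). The progenitor gene Mpo was at 76.3 to 216 RPKM in Ifnar -/- Flt3 ITD/+ and 379 to 973 in Ifnar +/- Flt3 ITD/+ HPC. The progenitor list summed to 972 to 1383 RPKM in Ifnar -/- Flt3 ITD/+ and 1495 to 2039 in Ifnar +/- Flt3 ITD/+ HPC, and the dendritic cell list to 0.0396 to 0.319 and 0.495 to 1.77 RPKM in the same groups. Their part in the result was not tested.

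In HPC with Flt3 +/+, loss of Ifnar was compared with a group in which 3 of 4 libraries stood apart. H2-K1 had 206, 145, 92.5 and 96.8 RPKM in Ifnar -/- and 214, 292, 199.8 and 234 in Ifnar +/- HPC, overlapping by 1 library. H2-Q6 had 0.354, 0.318, 0.0652 and 0.0261 RPKM in Ifnar -/- and 0.982, 3.01, 1.81 and 2.38 in Ifnar +/- HPC, without overlap, which was so in the lower direction for 1.74% of all genes. H2-D1 had 251, 304, 202 and 205 RPKM in Ifnar -/- HPC, all of it within the range of the Ifnar +/- HPC with 107, 562, 44.03 and 128. H2-K1 (-1.01 ± 0.19, edgeR adjusted p = 0.0137), H2-Q4 (-1.09 ± 0.29, 0.0448), H2-Q6 (-3.62 ± 0.55, 0.00289), H2-Q7 (-3.35 ± 0.37, 0.000118) and H2-T22 (-0.95 ± 0.19, 0.0244) were called lower in Ifnar -/- HPC, beside 3.56% of genes. H2-D1 at 0.09 ± 0.51 and H2-T23 at -0.36 ± 0.20 did not pass the threshold (edgeR adjusted p = 0.922 and 0.217). Without the second Ifnar +/- library, the same 5 genes were called lower and H2-D1 was called higher in Ifnar -/- HPC, by 1.17 ± 0.35 (edgeR adjusted p = 0.0163). That fit called 15.2% of 17848 genes lower and 19.8% higher. H2-Q6 and H2-Q7 were called whichever library was left out. H2-Q4 lost the call without any 1 of Ifnar +/- libraries 1, 3 and 4 or of Ifnar -/- libraries 2, 3 and 4. H2-T22 lost it without Ifnar +/- library 3 or any 1 of the Ifnar -/- libraries, and H2-K1 without Ifnar -/- library 3 or 4. In this comparison 2 of 8 stem cell markers were higher (451 to 591 RPKM in Ifnar -/- and 162 to 547 in Ifnar +/- HPC for the list), beside 212 of 17464 genes. The progenitor genes Mpo and Cd48 were lower, by 2.96 ± 0.78 and 0.98 ± 0.16 on the log2 scale. The part of all these markers in the result was not tested.

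Flt3 ITD went with higher heavy chain RNA in Ifnar +/- HPC for 4 of the 7 genes. H2-Q6 (2.66 ± 0.51, edgeR adjusted p = 0.00662) and H2-Q7 (2.06 ± 0.34, 0.00224) differed most, with 10.3 to 22.8 RPKM of H2-Q6 in Flt3 ITD/+ and 0.982 to 3.01 in Flt3 +/+ HPC. H2-K1 (0.76 ± 0.18, 0.0288) and H2-D1 (1.90 ± 0.53, 0.049) were called too, and H2-Q4, H2-T22 and H2-T23 did not pass the threshold, with groups that overlapped and changes of 0.41, 0.44 and 0.30. Of all genes, 2.77% were called higher. The calls of the Qa-2 pair held whichever library was left out. Those of H2-K1 and H2-D1 were lost together without any 1 of Flt3 +/+ libraries 1, 3 and 4. The same held without any 1 of Flt3 ITD/+ libraries 1, 2 and 3, and with only the groups compared. That of H2-D1 was also lost without Flt3 ITD/+ library 4, under DESeq2 and without the filter on low counts. Without the second Flt3 +/+ library all 4 calls stood, with H2-D1 at 2.98 ± 0.38 (edgeR adjusted p = 0.000139), in a fit that called 18.6% of 17848 genes higher. That fit called 5783 genes in either direction, against 642, 281 and 357 without Flt3 +/+ library 1, 3 or 4. The Qa-2 pair and H2-K1 and H2-D1 lay higher in Flt3 ITD/+ HPC without overlap, as did 5.57% of all genes. In this comparison 2 of 8 stem cell markers were lower, beside 412 of 17464 genes. Their sums were 267 to 303 RPKM in Flt3 ITD/+ and 162 to 547 in Flt3 +/+ HPC. Among macrophage markers, 2 of 9, Adgre1 and Csf1r, were higher (54.9 to 60.2 and 51.7 to 66.3 RPKM for the list). The part of all these markers in the result was not tested.

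In Ifnar -/- HPC, none of the 7 genes was called between Flt3 ITD/+ and Flt3 +/+ by edgeR or DESeq2. The changes ran between -0.56 ± 0.27 for H2-Q4 and 0.21 ± 0.52 for H2-Q6, every pair of groups overlapped, and 0.956% of all genes were called in either direction, with 2000 at an unadjusted p under 0.05. The test of the difference itself, the interaction of Flt3 ITD and Ifnar loss, called none of the 7 by edgeR (adjusted p between 0.0834 for H2-Q7 and 0.256 for H2-T22), in a comparison that called 2 genes in all (0.0115%) while 5181 had an unadjusted p under 0.05. DESeq2 called H2-K1, H2-Q6 and H2-Q7. Without the second Ifnar +/- Flt3 +/+ library, edgeR called H2-K1 (-1.03 ± 0.25), H2-D1 (-3.27 ± 0.47), H2-Q6 (-2.65 ± 0.76) and H2-Q7 (-2.32 ± 0.51), each negative, that is, with a lower log2 change on Ifnar loss in Flt3 ITD/+ than in Flt3 +/+ HPC (edgeR adjusted p = 0.00585, 0.000423, 0.0159 and 0.00292), and 5582 of 17848 genes in all, 17.9% of those tested being negative. For H2-D1 the change on Ifnar loss in Flt3 +/+ HPC was itself positive in that fit, as given above. Whether edgeR called the interaction for these genes thus depended on that library.

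HPC with both alleles changed (Ifnar -/- Flt3 ITD/+) had less RNA than Ifnar +/- Flt3 +/+ HPC for 5 genes, H2-K1 (-1.19 ± 0.17), H2-Q4 (-1.64 ± 0.27), H2-Q6 (-3.41 ± 0.50), H2-Q7 (-3.65 ± 0.35) and H2-T22 (-0.96 ± 0.18), where 0.888% of genes were called lower. H2-D1 and H2-T23 did not pass the threshold (edgeR adjusted p = 0.873 and 0.0812), and H2-T23 did without the second control library (-0.62 ± 0.20, edgeR adjusted p = 0.031), in a fit that called 9.09% of genes lower. The P14 comparisons share groups, so that their calls are not independent of each other.

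**Figure D4:**
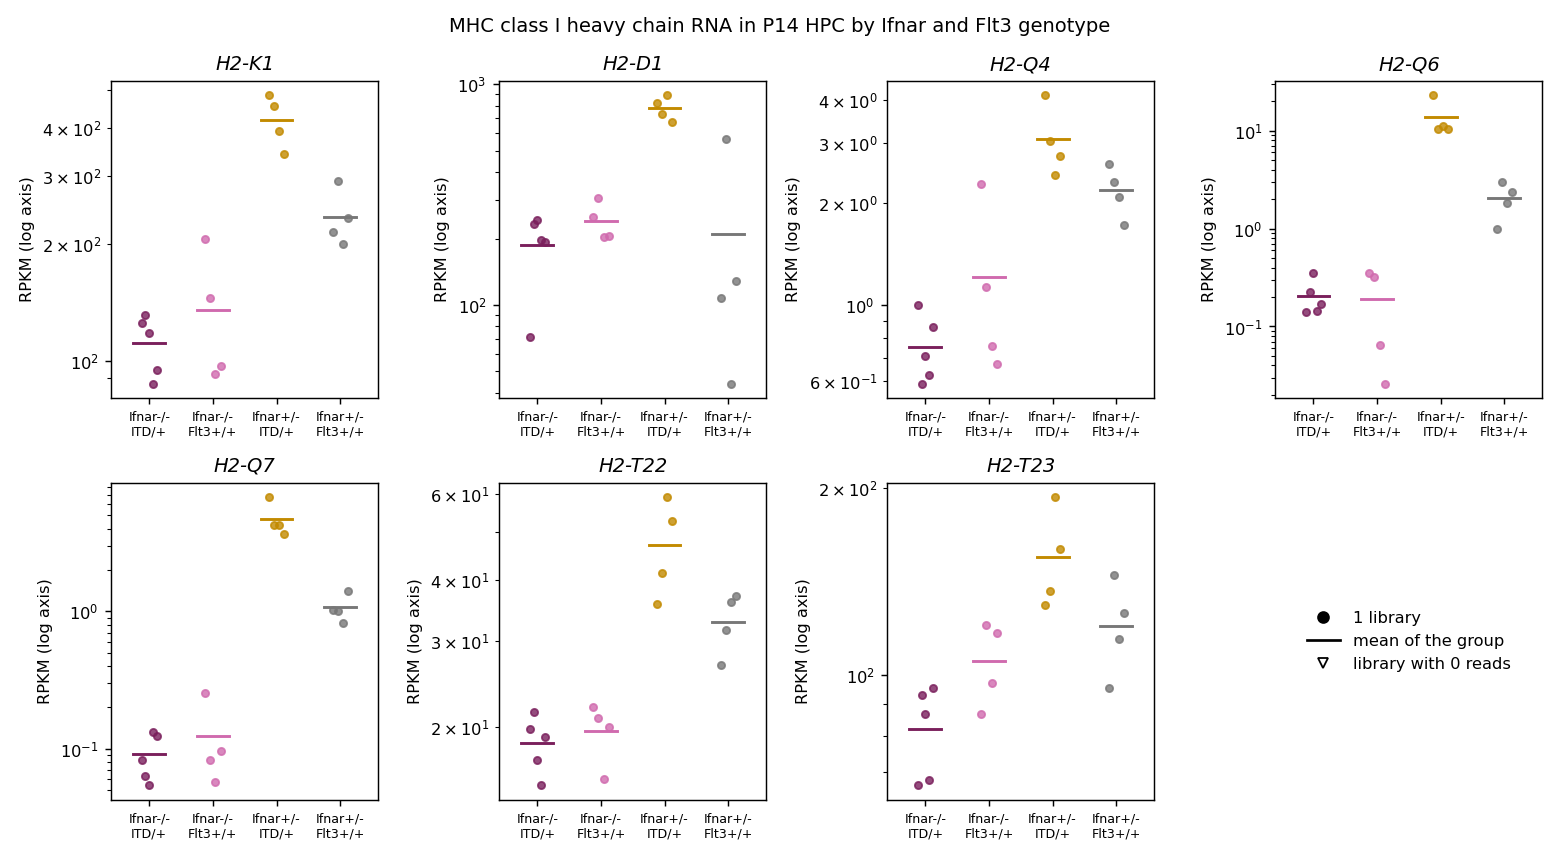
RPKM (log axis) of each heavy chain gene in P14 HPC of the 4 genotypes, 1 point a library, with a line at the group mean. Ifnar +/- Flt3 ITD/+ libraries are highest for H2-Q6 and H2-Q7 without overlap, both Ifnar -/- groups are lowest for these genes, and H2-D1 of Ifnar +/- Flt3 +/+ spans 44.0 to 562 RPKM.

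**Figure D5:**
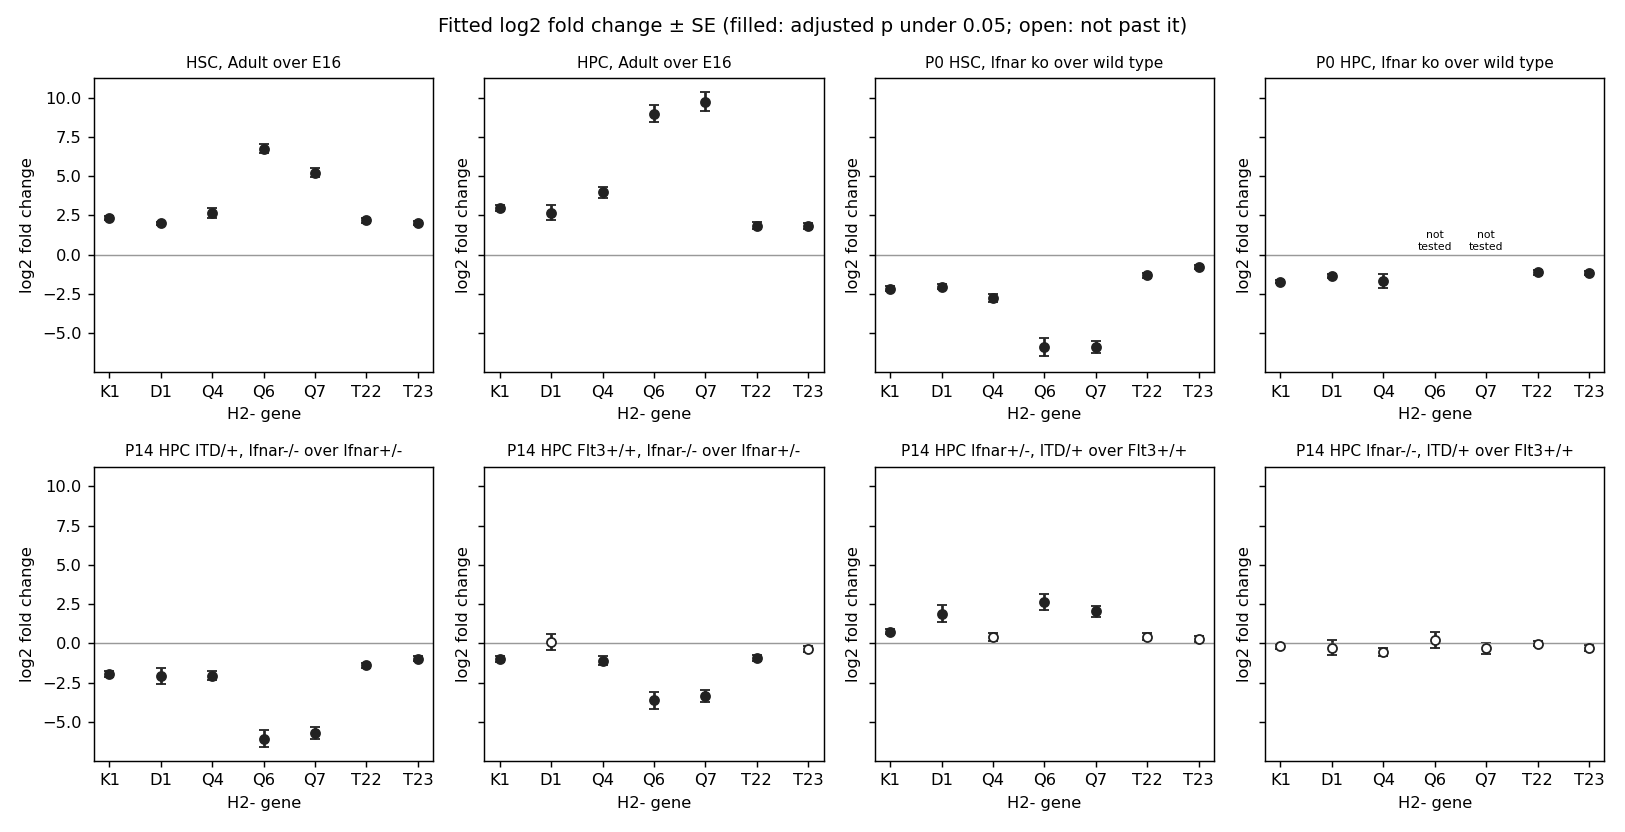
Fitted log2 fold change with its SE for each heavy chain gene in 8 comparisons, with filled points for an adjusted p under 0.05 and open points for the rest. The Qa-2 genes H2-Q6 and H2-Q7 have the largest changes in both Adult over E16 panels and in the Ifnar ko panel of P0 HSC, and they were not tested in P0 HPC.

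The partners of the heavy chains moved with them in part. The 14 genes of class I loading and antigen processing include the light chain B2m, the peptide transporter subunits Tap1 and Tap2 and the immunoproteasome subunits Psmb8, Psmb9 and Psmb10. In Adult against E16, 9 of 14 were called higher and none lower in HSC, with B2m at 1.70 ± 0.10, Psmb9 at 1.24 ± 0.12 and Psmb8 at 1.25 ± 0.12, and 7 were higher and 1 lower in HPC, with B2m at 1.44 ± 0.17 and Tap1 at 1.86 ± 0.23. The list's median change was 0.72 in HSC and 0.56 in HPC, against 0.02 and 0.05 over all genes. The shares of all genes called higher were 12.3% and 14.9%. In P0 Ifnar ko cells, 3 of 14 were lower in HSC, namely Tap1 (-1.82 ± 0.11), B2m (-1.56 ± 0.14) and Psmb9 (-0.70 ± 0.13), and 9 of 14 in HPC, led by B2m (-1.67 ± 0.11), and none was higher in either. The median changes were -0.20 and -0.66, against -0.0017 and 0.01 over all genes. The shares of all genes called lower were 0.937% in HSC and 5.58% in HPC. In P14 HPC with Flt3 ITD, the same 3 genes as in P0 HSC were lower in Ifnar -/- than in Ifnar +/- libraries, with Tap1 at -1.87 ± 0.18, B2m at -1.30 ± 0.19 and Psmb9 at -0.67 ± 0.17. With Flt3 +/+, 5 of 14 were lower in Ifnar -/- HPC, led by B2m (-1.16 ± 0.21). On Ifnar loss, 1.93% of all genes were called lower with Flt3 ITD and 3.56% with Flt3 +/+. Between Flt3 ITD/+ and Flt3 +/+, Tap1 alone of the 14 was higher in Ifnar +/- HPC (1.16 ± 0.19, edgeR adjusted p = 0.00156), and none was called in Ifnar -/- HPC. The shares of all genes were 2.77% called higher in Ifnar +/- HPC and 0.956% called in either direction in Ifnar -/- HPC.

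Among 11 regulators of class I genes, 5 were higher and none lower in Adult than in E16 HSC, including the interferon regulatory factor Irf1 at 1.23 ± 0.13 and Nlrc5 at 1.74 ± 0.32. In HPC 5 were higher, with Nlrc5 at 3.60 ± 0.32, and the list's median was 0.69 in HSC and 0.62 in HPC. Over all genes, 12.3% were called higher in HSC and 14.9% in HPC. In P0 Ifnar ko HSC, 4 of 11 were lower, including Irf9 (-2.25 ± 0.15) and Stat2 (-1.04 ± 0.15), which act in type I interferon signalling, and Nlrc5 (-3.10 ± 0.29). In P0 Ifnar ko HPC, 4 were lower as well, including Irf9 at -2.64 ± 0.14 and Nlrc5 at -3.62 ± 0.56, and the list's median was -0.24 in HSC and -0.0022 in HPC. Over all genes, 0.937% were called lower in HSC and 5.58% in HPC. Loss of Ifnar in P14 Flt3 ITD/+ HPC went with 3 of 11 regulators lower, including Nlrc5 (-3.38 ± 0.36) and Irf9 (-1.95 ± 0.23), beside 1.93% of all genes. Flt3 ITD in Ifnar +/- HPC went with 3 regulators higher, including Nlrc5 (1.83 ± 0.36) and Stat2 (1.22 ± 0.30), and with Rfxap lower (-1.05 ± 0.28). Over all genes, 2.77% were called higher. Nlrc5 was also 1 of the 2 genes that the interaction called among all genes (-3.22 ± 0.50, edgeR adjusted p = 0.0327), with the larger decrease on Ifnar loss in Flt3 ITD/+ HPC. That call was lost without Ifnar +/- Flt3 +/+ library 3, where the interaction called 0 genes. Without library 2 of that group, the interaction called 5582 genes. In Flt3 +/+ HPC, Irf9 was lower (-1.21 ± 0.24) and Rfx5 higher (0.86 ± 0.23) in Ifnar -/- libraries, and Nlrc5 was at -0.16 ± 0.35 (edgeR adjusted p = 0.788).

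Not all of the 13 other class I genes of the list passed the filters on low values. In Adult against E16, 7 of 9 tested were higher in HSC, with Fcgrt, the neonatal Fc receptor, at 1.04 ± 0.11 and H2-M3, which presents formylated peptides, at 1.23 ± 0.17, and 5 of 8 tested in HPC, with H2-M3 at 1.78 ± 0.17. Beside these, 12.3% of all genes were called higher in HSC and 14.9% in HPC. In P0 Ifnar ko cells, 3 of 11 tested were lower in HSC (H2-Q1, H2-T10 and H2-M3) and 4 of 8 in HPC, and the list's medians were -0.93 and -0.63. Beside these, 0.937% of all genes were called lower in HSC and 5.58% in HPC. H2-T10, which shares many windows with H2-T22, fell by 1.94 ± 0.36 in P0 HSC. In P14 Flt3 ITD/+ HPC, 5 of 12 tested were lower and 1 higher in Ifnar -/- libraries, where 1.93% of all genes were called lower. H2-Q5, a class I gene outside this list, changed by -2.98 ± 0.37 in P0 Ifnar ko HSC (edgeR adjusted p = 0.000313). On Ifnar loss in P14 Flt3 ITD/+ HPC, H2-Q5 changed by -3.89 ± 0.38 (edgeR adjusted p = 4.51e-06).

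Other genes were ranked by correlation with the mean log2 level of the 7 genes over the 26 HSC libraries of the age series. Genes without a symbol, or with a placeholder symbol such as a Gm number or a Rik name, were left out. The 5 most similar were H2-DMa (r = 0.977), Sdsl (0.970), Ninj1 (0.968), Cish (0.968) and Psmb9 (0.964). Over the 20 HPC libraries they were H2-DMb1 (0.968), Alcam (0.967), Cpne2 (0.957), H2-Q5 (0.955) and Ltbp3 (0.947). H2-DMa and H2-DMb1 encode the 2 chains of the class II peptide editor, and H2-Q5 shares part of its sequence with H2-Q7. The libraries share the order of ages, on which many genes change, so that r here describes likeness of the age profile only. Among the 7 genes, r with their own mean lay between 0.923 for H2-Q4 and 0.993 for H2-Q6 in HSC, and between 0.817 for H2-D1 and 0.992 for H2-Q7 in HPC.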

How the data were processed

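Bulk RNA-seq of sorted mouse HSC and HPC was taken as deposited in 2 tables. The submitters' processing notes name STAR 3.0.4, Subread and featureCounts 1.4.5 as the tools, and the genome build and annotation are not given in the sources used here. RNA had been extracted with a Qiagen RNAeasy micro plus kit and libraries made with a Clontech kit given as SMRTr, per the labels' protocols. No molecular identifiers were named, so that reads may not be independent molecules.

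In the first table the authors deposited raw counts for HPC and RPKM for HSC, and in the second raw counts for all libraries. 1 column of values was not used, and 2 rows that named no mouse gene, with at most 0.000144% of a library's reads, were left out. Each HSC RPKM value came out as a whole number of reads, within 0.001 reads, once gene lengths were known (100% of values of 25622 detected genes, of which 16663 had a GENCODE M21 exon length), and these reads covered no less than 99.9985% of every library's total. For a level, counts were divided by the same lengths and by the library total. H2-K1's length of 2608 bases came from the values and the other members' lengths from GENCODE M21.

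Counts were tested with edgeR 4.0.16 (quasi-likelihood, TMM, filterByExpr) and RPKM with limma 3.58.1, in R 4.3.3. For limma, RPKM was scaled by TMM factors, 0.5 was added and log2 taken, the variance trend was fitted robustly, and a gene needed over 1 RPKM in a number of libraries equal to the size of the smallest group. HSC and HPC of the age series were compared on the RPKM scale. Libraries of the 2 tables were tested only within their table. Groups came from the labels, and the fits pooled all groups of a cell type and experiment. P-values are two-sided and Benjamini-Hochberg adjusted over all genes tested, 0.05 is the threshold, and 25 comparisons were made. The standard error of an edgeR change is its size divided by the square root of F. The fits were tested on simulated data. DESeq2 1.42.0 was an alternative, and the others are named in the closing section. Tables were made with Python 3.11.15, pandas 2.3.3 and numpy 2.4.6.

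Symbols were found for 40254 identifiers. The members, gene lists and tests were chosen with earlier results of these data known. All 7 members were named throughout, with up to 3 called genes of smallest adjusted p from each pathway list. The 5 genes of highest correlation in each cell type were named too, after leaving out genes without a symbol or with a placeholder one. Markers of other cell types came from fixed lists.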

Additional observations from a re-analysis of the deposited data

Results flagged for a closer look

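Within groups of 4 or 5 libraries, 10 of 119 gene and group combinations had 1 library whose gap to its neighbour was large for the group's range, by Dixon's 95% criterion. Chance alone gives about 1 in 20. In P0 HPC wild type, the first library had the highest H2-K1 (352 RPKM) and H2-Q6 (0.584 RPKM) and the third the lowest H2-T22 (10.9 RPKM). In Adult HPC, the second library had the highest H2-D1 (1018 RPKM) and H2-Q7 (32.2 RPKM). In HSC, the fourth P0 library had the highest H2-Q4 (3.99 RPKM) and the fourth P7 library the lowest H2-Q6 (5.53 RPKM). At P14, the first Ifnar -/- Flt3 ITD/+ library had the lowest H2-D1 (71.5 RPKM), the first Ifnar +/- Flt3 ITD/+ library had the highest H2-Q6 (22.8 RPKM), and the second Ifnar +/- Flt3 +/+ library had the highest H2-D1 (562 RPKM).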

How the results depend on the processing

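No called result reversed its direction under the settings run. Some changes that were not called turned sign with 1 library left out, such as H2-D1 for Ifnar loss with Flt3 +/+ (-0.24 to 1.17) and for both alleles against the control (-0.53 to 0.88), H2-Q7 for Flt3 ITD in Ifnar -/- HPC (-0.52 to 0.22), and H2-Q4 (-0.46 to 0.08) and H2-Q7 (-0.22 to 0.36) between P0 and E18 in HSC. Under RLE size factors, a pseudocount of 0.1, no TMM factors and no filter on low counts, each count of called members stayed within 1.5 times. Between E18 and P0 in HSC, the count of 1 dropped to 0 without the filter on low values, with the Y-linked covariate and with only the groups compared (0 to 1 over libraries left out). DESeq2 called 4 members between E16 and P0 in HPC (1 to 2 over libraries left out, against 2), and 1 between P0 and P7, as did the fit of only the groups compared, against 0. For HSC against HPC at E16, where 5 were called, a pseudocount of 1 and only the groups compared gave 3 and no filter gave 2 (2 to 4 over libraries left out). At Adult, where 3 were called, the Y-linked covariate gave 1 and only the groups compared 6 (2 to 4). For the difference between these cell types, edgeR on recovered reads called H2-Q7 alone, against 0 in the main fit. The Y-linked covariate and only the groups compared each called H2-K1 alone. The P0 difference gave 1 with DESeq2 (0 to 1 over libraries left out). In P14 HPC, only the groups compared gave 2 calls for Flt3 ITD in Ifnar +/- HPC, against 4 (2 to 4 over libraries left out), and 2 for Ifnar loss with Flt3 +/+, against 5 (2 to 6). The interaction had 3 calls with DESeq2, against 0 (0 to 4). The cause was not tested.

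Over all genes, DESeq2 called 2704 for Flt3 ITD in Ifnar +/- HPC against 895 with edgeR, 419 against 167 in Ifnar -/- HPC, 3146 against 833 for Ifnar loss with Flt3 +/+, 1341 against 710 with Flt3 ITD/+, 745 against 327 for both together and 2534 against 2 for the interaction. It called 336 against 186 for P0 HSC, 754 against 301 for the P0 difference, 845 against 485 for HPC P0 over E16 and 406 against 218 for P7 over P0. With only the groups compared, the P14 counts were 164, 307, 44, 1398 and 161 in the order of the first 5 above, and the HSC counts were 0 against 7 (E16 over E14), 140 against 637 (P0 over E18), 414 against 794 (P7 over P0) and 1834 against 2807 (Adult over P0). In HPC they were 170 against 485 (P0 over E16), 640 against 218 (P7 over P0) and 2657 against 4275 (Adult over P14). Without the filter, HSC E18 over E16 had 471 against 728, P14 over P7 143 against 229, E16 over E14 14 against 7 and the interaction 4 against 2. Without TMM factors, E16 over E14 had 13. With the Y-linked covariate, HSC Adult over E16 had 1869 against 3273 and Adult over P0 1349 against 2807.

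Same-numbered libraries did not deviate together (lowest correlation -0.2623, highest 0.2603), so that the numbers were not taken as pairs. With the replicate number as a block, all 25 member counts stayed within 1.5 times, 167 of 173 single results kept their side of the threshold, 3 lost it and 3 gained it. Over all genes the block gave 1585 calls for Flt3 ITD in Ifnar +/- HPC, 1504 and 459 for Ifnar loss with Flt3 +/+ and with Flt3 ITD/+, 1 for the interaction and 4 for E16 over E14 in HSC. With each library left out in turn, 1455 of 1559 single results kept their side, 89 lost and 15 gained it. Low read numbers limit the folds of H2-Q6 and H2-Q7 against E16 HPC and in Ifnar ko cells.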
